A study of Drosophila melanogaster with 8 samples.

Results

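A set of 8 genes of the Jonah family of secreted serine proteases was followed in guts of adult female Drosophila melanogaster. They were the 7 Jonah genes whose names place them at the cytological positions 65A, 66C and 74E, together with yip7, a serine protease gene named for its product's interaction with the protein Yippee. The members were taken by name (Jon65Ai, Jon65Aii, Jon65Aiii, Jon65Aiv, Jon66Ci, Jon66Cii, Jon74E and yip7), and all 8 were found among the 17559 genes of the count table. Jonah proteases are made in the midgut by enterocytes, the absorptive cells of the gut epithelium, as inactive precursors that are secreted into the lumen and take part in the breakdown of dietary protein. They belong to the chymotrypsin fold of serine proteases, as trypsins do, and the individual substrates of most of them are not known. Their expression is known to respond to diet and to differ along the length of the midgut.

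Of the 8 genes, Jon66Ci, Jon66Cii and yip7 were lower in guts whose enterocytes expressed the B-type lamin LamDm0, a protein of the nuclear lamina, than in control guts. Jon66Cii was 5.67-fold lower, Jon66Ci 3.98-fold lower and yip7 2.46-fold lower, and the yip7 call was lost when any library other than LamDm0 replicate 2 was omitted (adjusted p of at most 0.087). None of the 8 was called higher. The remaining members, which include the most abundant Jonah gene, Jon65Aiv, were not called, and Jon65Aii had nearly the same mean in both groups.

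The LamDm0 group consisted of 4 libraries from guts expressing LamDm0 in enterocytes from a UAS transgene, labelled as overexpression in these cells. The control group consisted of 4 libraries from guts expressing GFP from a UAS transgene, which the genotype label calls wild type. The labels do not name the driver, and both groups were treated alike: flies grew at 18 °C, females aged 2 to 4 days spent 2 days at 29 °C, and RNA came from dissociated whole guts. The comparison asks how a raised lamin level in enterocytes alters gene expression in the gut, and in whole guts fewer cells of a type cannot be told apart from less RNA per cell.

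Total counts were 22737593 to 36022790 in LamDm0 libraries and 19720070 to 23347139 in control libraries. Lam, the gene expressed from the transgene, averaged 3608 ± 957 CPM in LamDm0 guts and 18.3 ± 1.62 CPM in control guts (SD, n = 4 each; CPM, counts per 1000000 counts after TMM scaling), and every library matched its label. Libraries of a group were not equally close. Control replicates 1 and 2 differed by 28.4 times the variance of counting alone, LamDm0 replicates 3 and 4 by 48.4 times, and control replicates 3 and 4 by 89.3 times, whereas the other pairs within a group differed by 192 to 406 times. No pair agreed within sampling noise. P-values below measure the spread between these libraries, which the labels call biological repeats without saying how the guts were divided.

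Marker lists describe the libraries, although summed levels do not measure numbers of cells. Of all 8794 genes tested edgeR called 3.26% lower and 4.76% higher, and DESeq2 636 lower and 668 higher. The log2 fold change was negative for 48.7%, and the groups did not overlap for 17.3%. The share at an unadjusted p under 0.05 is not given, so counts at that level, here and below, are descriptions only. Among tested markers of enterocytes 1 of 8 was lower in LamDm0 guts, the alkaline phosphatase gene Alp4 (28.2 ± 10.4 CPM in LamDm0 and 76.7 ± 29.0 CPM in control guts, adjusted p = 0.037; the call needed each of 5 libraries, and p reached 0.097 when 1 of them was omitted). With plain library totals (adjusted p = 0.059) or totals without mitochondrial genes (adjusted p = 0.052) Alp4 was not called and 0 of 8 were called lower. The summed level of the enterocyte markers was 2364 to 3037 CPM in LamDm0 libraries and 2836 to 3227 CPM in control libraries, with brv1 at 0 counts in all 8, which allows at most 0.083 to 0.152 CPM. Genes listed as markers of copper cells, the acid-secreting cells of the midgut, summed to 281 to 503 CPM in LamDm0 and 439 to 553 CPM in control libraries. The most abundant of them, picked with values known, were ctrip and Vha100-4. In LamDm0 guts ctrip had 164 ± 26.2 CPM, against 168 ± 8.09 CPM in control guts. Vha100-4 had 161 ± 61.4 CPM in LamDm0 and 250 ± 41.7 CPM in control guts (adjusted p = 0.23 by edgeR). How specific each listed gene is to its cell type was not tested. Much of the copper cell sum came from ctrip, so the sum may not follow copper cells. By edgeR 0 of 6 were called, with 1 at an unadjusted p under 0.05 and 0 called by DESeq2, and the copper cell transcription factor gene lab had the smallest p (adjusted p = 0.19; 0.033 without LamDm0 replicate 4). Summed markers of stem cells and enteroblasts lay at 77.9 to 162 CPM in LamDm0 and 111 to 196 CPM in control libraries, those of enteroendocrine cells at 374 to 527 CPM in LamDm0 and 308 to 523 CPM in control libraries, and those of visceral muscle at 1459 to 3205 CPM in LamDm0 and 1630 to 3003 CPM in control libraries. By edgeR 0 of 12, 0 of 14 and 0 of 11 of them were called, with 2, 2 and 0 at an unadjusted p under 0.05, and DESeq2 called 0, 1 and 0. The smallest p values were those of mira (adjusted p = 0.15), Mip (adjusted p = 0.092) and sls (adjusted p = 0.45). Fat body markers summed to 929 to 1893 CPM in LamDm0 and 55.1 to 835 CPM in control libraries, with no overlap of the groups. Of these markers 0 of 7 were called by edgeR, with 1 at an unadjusted p under 0.05, and 1 was called by DESeq2. The smallest p was that of apolpp, a lipoprotein gene (155.9 ± 50.4 CPM in LamDm0 and 33.4 ± 22.6 CPM in control guts, adjusted p = 0.10 by edgeR, and 0.013 without control replicate 3, which had 2.12 CPM). Malpighian tubule markers summed to 60.1 to 138 CPM in LamDm0 and 61.4 to 260 CPM in control libraries, and their median log2 fold change was -1.73, with 6 of 7 negative. By edgeR 1 of 7 was lower, the transporter gene Oatp58Db (adjusted p = 0.0057, and 0.063 with LamDm0 replicates 3 and 4 dropped). In all, 5 of the 7 had an unadjusted p under 0.05, of which Oatp58Da had a positive log2 fold change (0.53) and the others a negative one, and DESeq2 called 2 of the 7 lower. The part of these tissues in the results below was not tested.

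All 8 genes lie on chromosome arm 3L in 3 places (coordinates in BDGP6.54, from the Ensembl annotation). The 65A cluster spans 19228 bases, from 6035216 to 6054443, and holds the members yip7, Jon65Aiv, Jon65Aiii, Jon65Aii and Jon65Ai in that order. The genes lncRNA:CR43952 and CG6462, which are not members, lie between yip7 and Jon65Aiv. The first 4 members lie on the plus strand and Jon65Ai on the minus strand. The gap is 277 bases between the ends of Jon65Aii and Jon65Ai and 10621 bases between Jon65Aiv and Jon65Aiii. The Jon66C pair spans 2110 bases, from 8391540 to 8393649, with Jon66Ci on the plus strand and Jon66Cii on the minus strand, so that their 3′ ends face each other across 442 bases. Jon74E stands alone among the members, on the minus strand from 17548077 to 17549127. All are small protein-coding genes that overlap no other annotated gene. Jon65Ai, Jon66Ci and Jon66Cii have 1 exon, yip7, Jon65Aiv, Jon65Aiii and Jon65Aii have 2, and Jon74E has 3. The annotated coding sequences encode 259 residues (Jon65Aii) to 274 residues (Jon65Aiii). How far the genes share sequence was not analysed here, and how the authors counted reads that match several genes is not given in the sources used here, so the division of reads between similar members is uncertain. Sums over the genes of a place are therefore given beside the single genes.

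Members differed widely in level. Ordered by mean level per kilobase of exon they stood in the same order in both groups, although in control guts Jon65Aiii and yip7 had nearly the same mean. On this scale the mean level of Jon65Aiv was 18802 CPM in LamDm0 and 27120 CPM in control guts. That of Jon65Aiii was 14861 CPM in LamDm0 and 19534 CPM in control guts, and that of yip7 was 7767 CPM in LamDm0 and 19109 CPM in control guts. Among all genes of the table, ranked by the same measure, these took places 3, 4 and 10 in LamDm0 guts and places 3, 4 and 5 in control guts. Jon74E followed with 1870 CPM per kilobase in LamDm0 and 2862 in control guts, Jon65Ai with 1493 in LamDm0 and 2277 in control guts, and Jon65Aii with 1031 in LamDm0 and 1013 in control guts. The Jon66C pair was least abundant: Jon66Ci had 207 CPM per kilobase in LamDm0 and 824 in control guts, and Jon66Cii 15.1 in LamDm0 and 85.3 in control guts. Neighbours in this order were not always separate. The ranges of Jon65Aiv and Jon65Aiii, of Jon65Aiii and yip7, and of Jon74E and Jon65Ai overlapped in both groups, those of Jon65Ai and Jon65Aii in LamDm0 guts and those of Jon65Aii and Jon66Ci in control guts. In control guts Jon65Aiii was above yip7 in 1 of 4 libraries, whereas in LamDm0 guts it was above yip7 in 4 of 4. In CPM without regard to length, the mean of yip7 in control guts (17274 CPM) was above that of Jon65Aiii (17092 CPM).

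The Jon66C pair showed the largest differences among the 8 genes. Jon66Cii had 11.5, 20.4, 11.7 and 6.64 CPM in LamDm0 replicates 1 to 4, against 72.7, 72.7, 71.2 and 66.7 CPM in control replicates 1 to 4. Control libraries were nearly level, with a coefficient of variation of 4.01%, while LamDm0 libraries varied by 45.7% and held 289 to 429 counts each, against 1395 to 1519 counts in control libraries. The groups did not overlap. On the log2 scale the gene fell by 2.50 ± 0.29 (SE), with an adjusted p of 0.0021 in the quasi-likelihood test of edgeR, adjusted by Benjamini-Hochberg across 8794 genes. Adjusted p values below come from that test unless another is named. Jon66Ci had 142, 160, 180 and 211 CPM in LamDm0 replicates 1 to 4, against 515, 489, 767 and 990 CPM in control replicates 1 to 4. All LamDm0 libraries lay below all control libraries, and here the spread was in the control group, where replicates 3 and 4 were above replicates 1 and 2. Its log2 fold change was -1.99 ± 0.26 (adjusted p = 0.0032).

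Summed over the pair, the level was 153, 180, 192 and 218 CPM in LamDm0 replicates 1 to 4, against 587, 562, 838 and 1057 CPM in control replicates 1 to 4, and the sum fell 4.09-fold (log2 fold change -2.03 ± 0.23, adjusted p = 0.0018). Within the pair, the libraries with the higher Jon66Ci were not those with the higher Jon66Cii: their deviations from the group means had a correlation of -0.37 over 8 libraries. When the counts of replicates 1 and 2 and of replicates 3 and 4 were summed within each group, which leaves 2 samples against 2, Jon66Cii stayed below the threshold (adjusted p = 0.033), while Jon66Ci (adjusted p = 0.0998) and the sum of the pair (adjusted p = 0.085) did not.

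**Figure D1:**
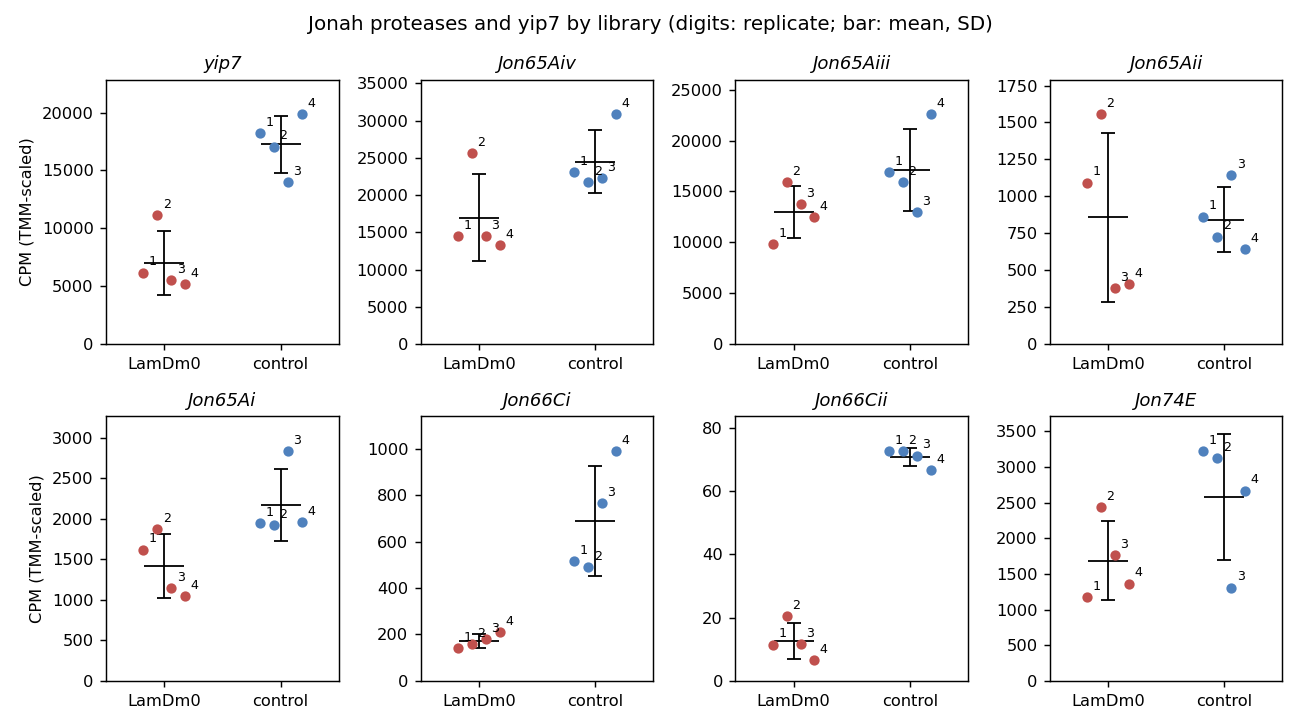
Level of each of the 8 genes in CPM (TMM-scaled, linear axis from 0) in the 4 LamDm0 libraries (red) and the 4 control libraries (blue). Digits give the replicate number and bars the mean and SD; the groups do not overlap for yip7, Jon65Ai, Jon66Ci and Jon66Cii.

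The gene yip7, at one end of the 65A cluster, was the abundant member that was called lower. It had 6189, 11144, 5563 and 5191 CPM in LamDm0 replicates 1 to 4, against 18196, 17048, 14003 and 19852 CPM in control replicates 1 to 4. The highest LamDm0 library, replicate 2, was still below the lowest control library, replicate 3. Its log2 fold change was -1.30 ± 0.29 (adjusted p = 0.031). This call was close to the threshold. Omitting any library except LamDm0 replicate 2 ended it, with an adjusted p of at most 0.087, while omitting LamDm0 replicate 2 gave 0.0076. It was also lost with libraries summed in pairs (adjusted p = 0.33). The log2 fold change stayed between -1.61 and -1.18 when 1 library was omitted.

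The 4 Jon65A genes of the cluster were not called. Jon65Aiv, the most abundant member, had 14467, 25700, 14521 and 13299 CPM in LamDm0 replicates 1 to 4, against 23133, 21759, 22300 and 30874 CPM in control replicates 1 to 4. LamDm0 replicate 2 lay within the control range and the other LamDm0 libraries below it. For Jon65Aiv the log2 ratio of the groups was -0.53 ± 0.28 (adjusted p = 0.30). Jon65Aiii had 9864, 15901, 13783 and 12464 CPM in LamDm0 replicates 1 to 4, against 16862, 15924, 13001 and 22580 CPM in control replicates 1 to 4. The groups overlapped through LamDm0 replicates 2 and 3 and control replicate 3, and the log2 fold change was -0.39 ± 0.25 (adjusted p = 0.39).

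Jon65Ai and Jon65Aii, whose 3′ ends face each other, varied together within the groups. Jon65Ai had 1619, 1872, 1144 and 1044 CPM in LamDm0 replicates 1 to 4, against 1945, 1924, 2835 and 1959 CPM in control replicates 1 to 4. Its groups did not overlap, by a narrow margin between LamDm0 replicate 2 and control replicate 2, and it was not called (log2 fold change -0.61 ± 0.24, adjusted p = 0.16). Jon65Aii had 1094, 1556, 380 and 406 CPM in LamDm0 replicates 1 to 4, against 863, 728, 1142 and 641 CPM in control replicates 1 to 4. The LamDm0 libraries were split, with replicate 1 within the control range, replicate 2 above it and replicates 3 and 4 below all controls. Over all libraries the log2 fold change was 0.03 ± 0.45 (adjusted p = 0.98). From LamDm0 replicates 3 and 4 alone against the controls it was -1.10 (adjusted p = 0.046), and from LamDm0 replicates 1 and 2 alone it was 0.66 (adjusted p = 0.20). LamDm0 replicates 3 and 4 were the closest pair of their group, so the spread may be understated. The p-values of these fits, which follow a split seen in the same values, are descriptions only. In the first of these fits Jon65Ai also passed (log2 fold change -0.98, adjusted p = 0.040), so that 5 members were called lower. Of all 9026 genes tested in that fit 426 were called lower. The deviations of Jon65Ai and Jon65Aii from their group means had a correlation of 0.93 over the 8 libraries, as had those of Jon65Aiv and yip7, whereas those of Jon65Ai and Jon65Aiii had -0.24. These points share libraries and scaling factors, so the correlations are descriptions only.

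Jon74E, the member farthest from the rest, had 1181, 2440, 1765 and 1367 CPM in LamDm0 replicates 1 to 4, against 3227, 3131, 1309 and 2669 CPM in control replicates 1 to 4. Control replicate 3 was below 3 of the 4 LamDm0 libraries, and without it LamDm0 libraries were all below the remaining controls. For Jon74E the log2 ratio of the groups was -0.61 ± 0.33 (adjusted p = 0.30). It was -0.83 when control replicate 3 was omitted (adjusted p = 0.12).

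Of the 8 members, 3 were lower in LamDm0 guts, 0 were higher and 5 did not pass. Over all genes tested 3.26% were called lower, 4.76% higher and 8.03% in either direction. DESeq2 and limma-voom each also called 3 lower and 0 higher. Of all 8794 genes DESeq2 called 636 lower and limma-voom 285. By edgeR 4 members had an unadjusted p under 0.05. The log2 fold change was negative for 7 of the 8 (8 of 8 with limma-voom, where Jon65Aii had -0.15), against 48.7% of all genes tested, and the median of the members was -0.61, against 0.01 for all genes tested. The groups did not overlap, with LamDm0 lower, for 4 members, against 7.38% of all genes tested (17.3% in either direction). With 1 library left out the number called lower was 2, the call for yip7 being lost, except without LamDm0 replicate 2, when it was 3. It was 1, Jon66Cii, with libraries summed in pairs, when 36 genes in all were lower.

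**Figure D2:**
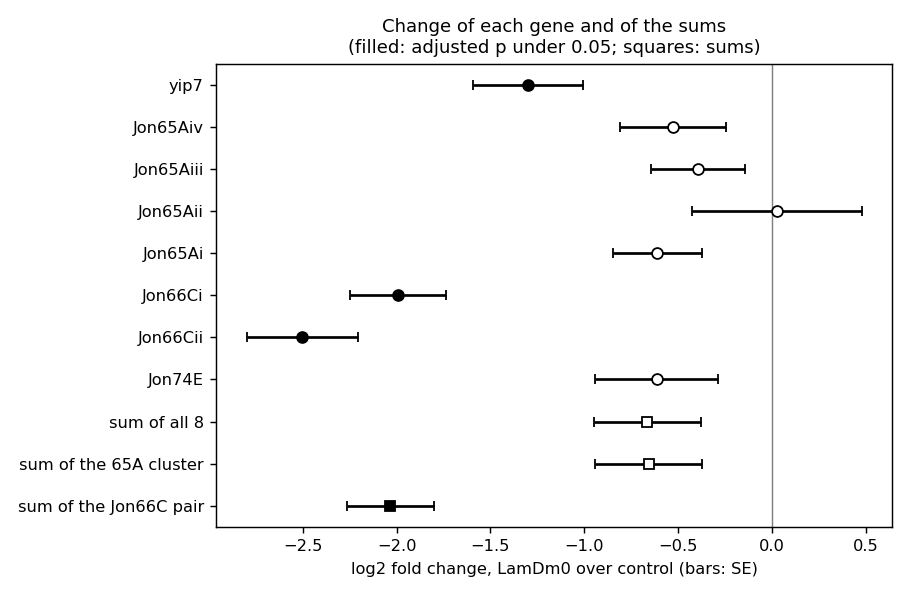
Log2 fold change of LamDm0 over control (horizontal axis, bars SE) for the 8 genes (circles) and for 3 sums of counts (squares). Filled symbols have an adjusted p under 0.05: yip7, Jon66Ci, Jon66Cii and the sum of the Jon66C pair, which lies at -2.03, while the sum of all 8 lies at -0.66.

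Together the 8 genes took 3.26%, 5.43%, 4.50% and 4.15% of all counts in LamDm0 replicates 1 to 4, against 6.46%, 6.08%, 4.82% and 7.19% in control replicates 1 to 4. LamDm0 replicate 2 lay above control replicate 3, so the groups overlapped. Mitochondrially encoded genes took 8.53% to 21.9% of counts in LamDm0 libraries and 5.55% to 15.2% in control libraries. With these genes left out of the totals, the 8 genes took 4.17% to 6.08% in LamDm0 libraries and 5.68% to 8.33% in control libraries. Scaled as the single genes were, the sum of all 8 was 41174 ± 11838 CPM in LamDm0 and 65238 ± 10344 CPM in control guts (SD, n = 4 each), and it was not called (log2 fold change -0.66 ± 0.29, adjusted p = 0.20 by edgeR). DESeq2, run as an alternative, called it lower (adjusted p = 0.018). The sum of the 65A cluster was 39300 ± 11319 CPM in LamDm0 and 61892 ± 9861 CPM in control guts, with a log2 fold change of -0.66 ± 0.29 (adjusted p = 0.20 by edgeR and 0.020 by DESeq2). LamDm0 replicate 2 had the highest sum of all 8 in its group, 58794 CPM against 33989 to 37347 CPM in the other LamDm0 libraries. Without it the log2 fold change of the sum was -0.89 (adjusted p = 0.076).

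**Figure D3:**
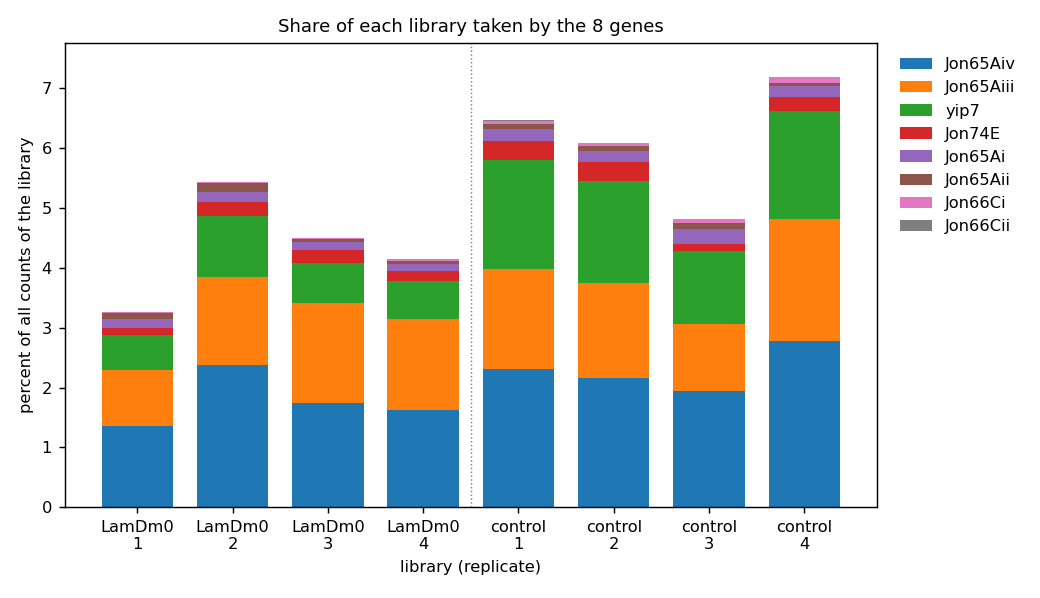
Percent of all counts of each library (vertical axis) taken by the 8 genes, stacked by gene, with the 4 LamDm0 libraries on the left and the 4 control libraries on the right. Jon65Aiv, Jon65Aiii and yip7 make up most of each bar, and the yip7 segment is smaller in each LamDm0 library than in any control library.

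The makeup of the summed counts differed between the groups. In LamDm0 replicates 1 to 4 yip7 supplied 17.9%, 19.0%, 14.9% and 15.3% of the counts of the 8 genes, against 28.1%, 27.9%, 25.3% and 24.9% in control replicates 1 to 4. Jon65Aiii supplied 28.5%, 27.0%, 36.9% and 36.7% in LamDm0 replicates 1 to 4, against 26.0%, 26.1%, 23.5% and 28.4% in control replicates 1 to 4. LamDm0 replicates 3 and 4 thus stood well above every control in the share of Jon65Aiii, LamDm0 replicate 1 was barely above control replicate 4, and LamDm0 replicate 2 lay within the control range. Jon66Ci supplied 0.41%, 0.27%, 0.48% and 0.62% in LamDm0 replicates 1 to 4, against 0.79%, 0.80%, 1.38% and 1.24% in control replicates 1 to 4.

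Ratios between members within a library do not depend on library scaling, and 3 of them were tested with an exact permutation test over the 70 divisions of the libraries, two-sided. The log2 ratio of the Jon66C pair to the 65A cluster was -7.76, -8.28, -7.53 and -7.22 in LamDm0 replicates 1 to 4, against -6.70, -6.68, -5.99 and -6.17 in control replicates 1 to 4. Every LamDm0 library was below every control, and the mean difference of -1.31 made the pair 2.49-fold lower relative to the cluster (exact p = 0.029, adjusted over the 3 ratios 0.043). The log2 ratio of yip7 to the 4 Jon65A genes was -2.13, -2.01, -2.42 and -2.39 in LamDm0 replicates 1 to 4, against -1.23, -1.24, -1.49 and -1.50 in control replicates 1 to 4. These groups did not overlap either, and the mean difference of -0.87 corresponded to a 1.83-fold lower ratio (exact p = 0.029, adjusted 0.043). That p is the smallest this design allows. For both of these ratios and in both groups, replicates 1 and 2 lay on one side of replicates 3 and 4. The test takes every library as independent, and the ratios were not tested with libraries summed in pairs. The log2 ratio of Jon74E to the 65A cluster was -4.56 ± 0.20 in LamDm0 and -4.65 ± 0.55 in control guts (SD, n = 4 each), with a mean difference of 0.10 (exact p = 0.80, adjusted 0.80). Without control replicate 3, in which this log2 ratio was lowest (-5.35), the mean difference was -0.14. If similar members exchanged reads, the ratio of yip7 to the Jon65A genes would carry that error, and the size of it was not tested.

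**Figure D4:**
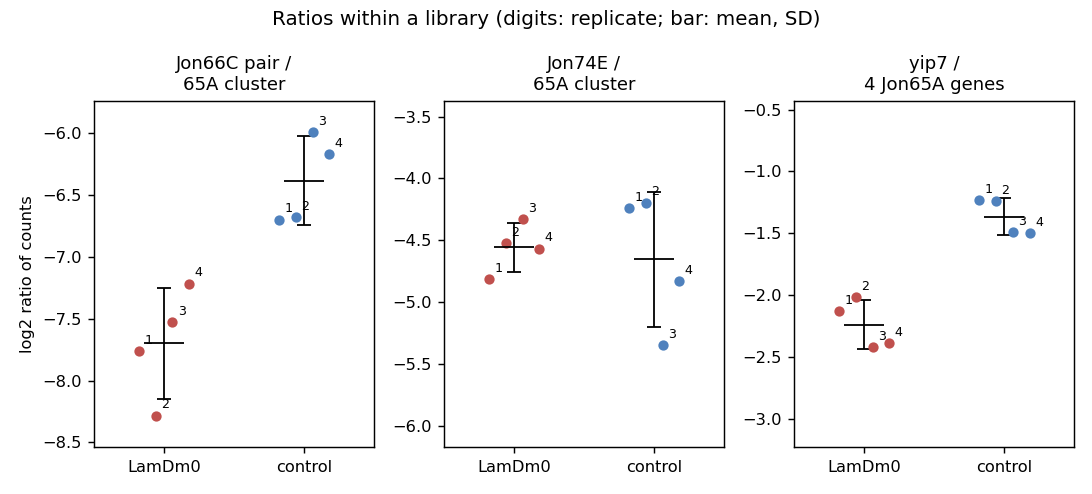
Log2 ratios of counts within each library for the Jon66C pair over the 65A cluster, Jon74E over the 65A cluster, and yip7 over the 4 Jon65A genes, in the 4 LamDm0 libraries (red) and the 4 control libraries (blue), with mean and SD. The groups are separate in the first and the third panel, with mean differences of -1.31 and -0.87, and overlap in the second.

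The authors' deposited table of their own comparison, in which Lam has a positive log2 fold change, gave -2.23 for Jon66Cii (adjusted p = 7.5e-15), -1.84 for Jon66Ci (adjusted p = 2.1e-12) and -1.20 for yip7 (adjusted p = 2.8e-05). In the authors' deposited table Jon65Ai had -0.58 (adjusted p = 0.057), and Jon65Aiv, Jon74E, Jon65Aiii and Jon65Aii had adjusted p values of 0.14, 0.22, 0.24 and 0.997. The same 3 members thus passed 0.05 there as in the edgeR test.

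Other serine protease genes of the gut were read against the 3.26% of all genes tested that edgeR called lower and the 4.76% called higher. The other Jonah genes (Jon25B, Jon44E, Jon99C and Jon99F genes) gave 1 lower and 0 higher among 9 tested, all 9 with a negative log2 fold change (8 with limma-voom or plain library totals) and a median of -0.58. The call was Jon44E, which had 364, 410, 380 and 310 CPM in LamDm0 replicates 1 to 4, against 477, 498, 611 and 540 CPM in control replicates 1 to 4 (adjusted p = 0.048). Omission of any single library ended this call (highest adjusted p 0.12). DESeq2 called 5 of the 9 lower, against 636 of all 8794 genes. Among 13 trypsin genes tested, 2 were lower and 0 higher, 11 had a negative log2 fold change (9 with plain library totals) and the median was -0.33. Of these, deltaTry had 6.04, 11.6, 25.2 and 17.1 CPM in LamDm0 replicates 1 to 4, against 98.2, 90.0, 77.7 and 130 CPM in control replicates 1 to 4 (adjusted p = 0.0052). The trypsin gene thetaTry had 1560 ± 300 CPM in LamDm0 and 2648 ± 260 CPM in control guts (adjusted p = 0.035; the call needed each of 7 libraries, and p reached 0.097 when 1 of them was omitted). gammaTry and Ser12 were at 0 counts in all 8 libraries. Sequence shared between trypsin genes was not analysed, and the handling of reads that match several genes is not given. The division of reads between trypsin genes is thus also uncertain, and 0 counts need not mean that a gene was silent.

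Serpins, which inhibit serine proteases, gave 1 call in each direction among 13 tested, with a median of 0.06. Spn42De rose to 5.59 ± 0.46 CPM in LamDm0 guts, against 2.39 ± 0.31 CPM in control guts (adjusted p = 0.0030). Spn47C fell to 0.079 ± 0.036 CPM in LamDm0 guts, against 0.67 ± 0.22 CPM in control guts (adjusted p = 0.0057). Its LamDm0 values lie near the level of 3 counts in a library (0.083 to 0.152 CPM), and its call was lost when LamDm0 replicates 3 and 4 were dropped (adjusted p = 0.054).

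A further list held gut transcription factors and signalling genes chosen as possible regulators of digestive enzyme genes or midgut regions. Whether each of them acts in this way was not tested. Among 26 genes of this list that were tested, 4 were lower and 0 higher in LamDm0 guts (against 3.26% lower and 4.76% higher over all genes tested). Their median was -0.13 (0.06 with plain library totals, where the median of all genes was 0.20). The gene daw encodes Dawdle, a ligand of the Activin branch of TGF-beta signalling. It had 4.17, 5.19, 1.52 and 1.89 CPM in LamDm0 replicates 1 to 4, against 19.1, 19.2, 11.3 and 12.4 CPM in control replicates 1 to 4, a 4.93-fold fall (adjusted p = 0.011). Its groups did not overlap, and in both of them replicates 1 and 2 were above replicates 3 and 4. Against control replicates 3 and 4 alone it was not called (adjusted p = 0.082). Mondo, which encodes a sugar-sensing transcription factor, fell to 49.9 ± 8.53 CPM in LamDm0 guts, against 79.1 ± 9.83 CPM in control guts (adjusted p = 0.027), and sug, encoding the sugar-induced factor Sugarbabe, fell to 81.3 ± 9.08 CPM in LamDm0 guts, against 131 ± 31.4 CPM in control guts (adjusted p = 0.045). The Mondo call needed each of 5 libraries (adjusted p of at most 0.077 when 1 of them was omitted), and the sug call needed each of 6 (at most 0.10). The homeodomain gene hth fell to 34.3 ± 2.05 CPM in LamDm0 guts, against 49.8 ± 4.65 CPM in control guts (adjusted p = 0.014). With plain library totals hth (-0.35, adjusted p = 0.25), Mondo (-0.50, adjusted p = 0.11) and sug (-0.51, adjusted p = 0.21) were not called, whereas yip7 (-1.16, adjusted p = 0.015), Jon66Ci (-1.76, adjusted p = 0.0047) and Jon66Cii (-2.37, adjusted p = 0.00055) were. GATAe, a GATA factor of the midgut, had 86.4 ± 21.1 CPM in LamDm0 and 92.0 ± 12.9 CPM in control guts (adjusted p = 0.81); it was picked for mention with its values known.

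**Figure D5:**
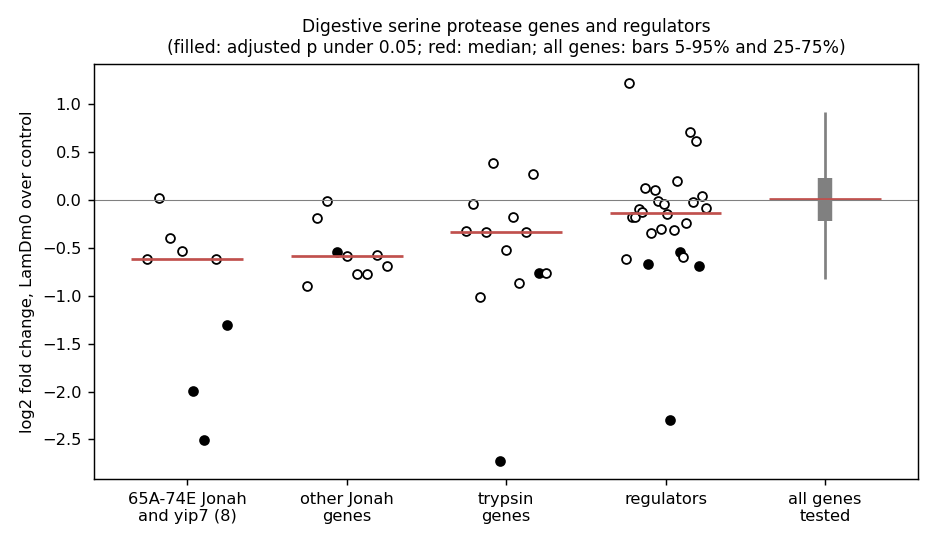
Log2 fold change of LamDm0 over control for tested genes of 4 lists and for all genes tested (right; bars span the 5th to 95th and the 25th to 75th percentile, -0.83 to 0.92 for the wider one). Filled points have an adjusted p under 0.05 and red lines are medians: -0.61 for the 8 members, -0.58 for other Jonah genes, -0.33 for trypsin genes, -0.13 for the regulators (0.06 with plain library totals) and 0.01 for all genes tested.

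Of 16 other genes that the count table holds within 10 kb of a member, 10 were tested. By edgeR 0 were called, with 3 at an unadjusted p under 0.05. DESeq2, which called 636 of all 8794 genes lower, called 2 of the neighbours lower. CG6462, which had the smallest p, was one of these. CG6462, which starts 936 bases beyond yip7 and lies between yip7 and Jon65Aiv, had 6.11 ± 2.05 CPM in LamDm0 and 13.1 ± 4.24 CPM in control guts (log2 fold change -1.10 ± 0.32, adjusted p = 0.069; 0.028 without control replicate 3). Others were picked with their values known: CG10477 on the other side of yip7 had 328 ± 65.2 CPM in LamDm0 and 503 ± 109 CPM in control guts (adjusted p = 0.097), and CG10472, beyond Jon65Ai, had 6133 ± 2048 CPM in LamDm0 and 7686 ± 831 CPM in control guts (adjusted p = 0.50). ImpE1, which ends 369 bases before Jon66Ci on the same strand, had 23 counts over all 8 libraries and was not tested.

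The genes whose level followed the summed 8 members most closely over the 8 libraries were, out of 6645 genes averaging 5 CPM or more, Fic (Pearson r = 0.96), EloB (0.96), Kaz-m1 (0.95), CG17571 (0.95), Ctns (0.95) and Syx18 (0.93). Fic encodes an enzyme that modifies the endoplasmic reticulum chaperone BiP, EloB the transcription elongation factor subunit Elongin B, Ctns the lysosomal cystine transporter cystinosin and Syx18 a membrane fusion protein of early secretion. After removal of the group means their correlations were 0.93, 0.88, 0.90, 0.86, 0.85 and 0.81. Fic had 22.9, 27.4, 22.4 and 21.4 CPM in LamDm0 replicates 1 to 4, against 31.2, 30.4, 31.5 and 33.8 CPM in control replicates 1 to 4. The values share libraries and scaling factors and were chosen as the highest among many, so they describe these libraries only.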

How the data were processed

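RNA of dissected guts was sequenced in 4 LamDm0 and 4 control libraries, from 100 ng of total RNA with 50 nt reads, per the labels. The authors deposited counts of reads per gene for 17559 genes. These are whole numbers with unequal totals and were treated as raw. The submitters' processing notes list BDGP6, TopHat2 2.0.13, HTSeq 0.6.0 and DESeq2 1.10.1 without roles. The sources used here give neither the strand setting of the counting nor its handling of reads that match several genes. The authors also deposited a table of log2 fold changes, p-values and a mean normalised signal for 12181 genes, which is quoted only where named.

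Symbols were matched by gene identifier (17252 from the annotation, 234 from the authors' table), and coordinates and exon lengths come from the Ensembl annotation of BDGP6.54. Members and lists were chosen with earlier results of these data known. Genes passing filterByExpr (8794, with all 8 members among them) were scaled by TMM and tested in edgeR 4.0.16 (R 4.3.3) by the two-sided quasi-likelihood F-test with no block and a threshold of 0.05 on the Benjamini-Hochberg adjusted p over all genes tested. SE is the size of the log2 fold change over the square root of F. For a sum, the members' rows were replaced by their total and the table was fitted again. Ratios were tested by exact permutation over libraries. On simulated data the edgeR procedure called 5 of 50 genes raised 1.5-fold, 31 of 49 raised 2-fold and 48 of 50 raised 4-fold. Changes near 1.5-fold would thus mostly be missed, so a gene that was not called cannot be read as unchanged. A count of 0 allows up to 3 counts, and floors cover counting error only. Alternatives were other scalings and filters, DESeq2 1.42.0, limma 3.58.1 (voom), a replicate block, and omitted or summed libraries. The genes named besides the members were, per list, up to 4 called genes with the smallest p (or the 1 with the smallest p where none was called) and the 6 most alike in level, and others are marked as picked with values known. A planned search of promoters and of shared sequence was not analysed here.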

Additional observations from a re-analysis of the deposited data

Results flagged for a closer look

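In 6 of the 28 sets of 4 libraries checked, 1 library stood apart from the other 3 by more than Dixon's limit, which chance does in about 1 in 20 such sets. The sets are not independent, because the sums contain the single genes, so the 6 cannot be set against that rate. LamDm0 replicate 2 was the high library 4 times: Jon65Aiv at 25700 CPM, yip7 at 11140 CPM, the sum of the 65A cluster at 56170 CPM and the sum of all 8 genes at 58790 CPM, where the other LamDm0 libraries were close to each other. Among controls, replicate 3 was high for Jon65Ai at 2835 CPM and replicate 4 was high for Jon65Aiv at 30870 CPM. Without LamDm0 replicate 2 the log2 fold changes were -0.80 for Jon65Aiv (adjusted p = 0.077), -1.61 for yip7 (0.0076), -0.88 for the 65A cluster (0.076) and -0.89 for all 8 genes (0.076), all by edgeR. Without control replicate 3 that of Jon65Ai was -0.45 (0.31), and without control replicate 4 that of Jon65Aiv was -0.40 (0.46).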

How the results depend on the processing

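Jon66Cii, Jon66Ci, yip7 and the 3 sums kept a negative log2 fold change in all alternatives run, and Jon66Cii also kept its call in each. Jon66Ci lost its call only with libraries summed in pairs. The 3 members were called with each other scaling, filter, DESeq2 and limma-voom. Of all genes, edgeR called 287 lower and 419 higher. With plain totals these were 134 and 548, with totals that leave out mitochondrial genes 149 and 867, among genes averaging 10 CPM or more 190 and 275, and with DESeq2 636 and 668. The counts lower were 137 with LamDm0 replicates 3 and 4 dropped, 426 with LamDm0 replicates 1 and 2 dropped and 435 with control replicates 3 and 4 dropped. With control replicates 1 and 2 dropped they were 120 lower and 176 higher, and with libraries summed in pairs 36 and 36. Omitting 1 library gave 132 to 267 lower and 214 to 387 higher.

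Members called lower numbered 5 with LamDm0 replicates 1 and 2 dropped, 1 in summed pairs and 2 to 3 with 1 library omitted. The other Jonah genes called lower were 0 with both kinds of totals, no filter, the 10 CPM filter, each other pair dropped and summed pairs, 5 with DESeq2, 3 with LamDm0 replicates 1 and 2 dropped and 0 to 2 with 1 library omitted. Trypsins called lower were 1 without a filter and with LamDm0 replicates 3 and 4, control replicates 1 and 2 or control replicates 3 and 4 dropped, 5 with LamDm0 replicates 1 and 2 dropped, 0 in summed pairs and 1 to 2 with 1 library omitted. By DESeq2 the sum of 8 had -0.68 (adjusted p = 0.018) and the 65A cluster -0.68 (0.020), and with 1 library omitted these were -0.89 to -0.55 and -0.88 to -0.54 by edgeR. The Jon66C pair had -2.03 in summed pairs (0.085) and -2.16 to -1.83 with 1 library omitted. Jon65Aii changed sign to -0.15 with limma-voom, to -1.10 with LamDm0 replicates 1 and 2 dropped and to -0.046 with control replicates 1 and 2 dropped, and ran from -0.43 to 0.27 with 1 library omitted. The Jon74E ratio ran from -0.14 to 0.25. The yip7 call was also lost with LamDm0 replicates 3 and 4 (-0.99, adjusted p = 0.13), control replicates 1 and 2 (0.14) or control replicates 3 and 4 (0.068) dropped. Where nothing else is named, the cause was not tested; dropping or summing libraries leaves fewer samples.

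Deviations of same-numbered libraries had correlations of -0.37 to -0.03, so no pairing by equal replicate numbers was seen in them. Such correlations do not show what single genes do. For daw and for the ratios of the Jon66C pair and of yip7, replicates 1 and 2 lay on the same side of replicates 3 and 4 in both groups. With the replicate block 127 genes were lower and 215 higher, 2 members, 0 other Jonah genes and 1 trypsin were lower, yip7 had -1.36 (adjusted p = 0.075) and Jon65Aii -0.20. The ratio differences of -1.31 and -0.87 had an adjusted p of 0.19 in a sign-flip test over the 4 numbers, which cannot pass the threshold.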
